A study of Mus musculus with 9 samples.

Results

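The 10 apolipoprotein genes Apoa1, Apoa2, Apoa4, Apoa5, Apob, Apoc1, Apoc3, Apoe, Apoh and Apom were followed in the livers of 9 mice. They were picked by symbol through the mouse annotation, out of 55335 genes in the deposited table, and all 10 were above 0 in every mouse and passed the filter on low values that left 6755 genes for testing. The 3 groups were made up of 3 males each of strain B6D2F2, aged 20 weeks, fed normal chow and fasted for 4 h before the liver was taken. NC-chow mice (numbers 1, 5 and 6) came from natural pregnancy. IVF-chow mice (numbers 2, 3 and 4) came from in vitro fertilization with transfer of fresh 2-cell embryos into ICR recipients. FET-chow mice (numbers 2, 3 and 4) came from embryos fertilized the same way, slow-frozen at the 2-cell stage, thawed and transferred into ICR recipients. Parents of all groups were B6D2F1/J, so that each offspring carries its own mixture of the C57BL/6 and DBA/2 genomes. The NC-chow group had neither embryo culture nor transfer to another strain, so the steps of the procedure cannot be told apart in a comparison with it. Litters are not named in the labels, and p-values measure only the spread between these mice.

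Apolipoproteins are the protein part of the particles that carry fat and cholesterol in blood, and the liver is a main source of most of them. Apob is the structural protein of very low density lipoprotein (VLDL) and of the low density lipoprotein made from it. Apoa1 and Apoa2 are the main structural proteins of high density lipoprotein (HDL). The smaller, exchangeable members steer the fate of the particles: Apoc3 restrains and Apoa5 promotes the breakdown of triglyceride by lipoprotein lipase, and Apoe is the ligand through which receptors take up remnants.

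Of the 10 genes, 6 lie in 2 clusters. Positions are those of build GRCm38 in the GENCODE vM21 annotation. Apoa1 (chr9:46228580-46230466, plus strand), Apoc3 (chr9:46232933-46235636, minus strand), Apoa4 (chr9:46240696-46243459, plus strand) and Apoa5 (chr9:46268633-46271919, plus strand) lie within 43340 bases. Apoc1 (chr7:19689481-19692660) and Apoe (chr7:19696109-19699188) lie 3448 bases apart, both on the minus strand. The other members stand alone: Apoa2 (chr1:171225054-171226379, plus strand), Apob (chr12:7977648-8016835, plus strand), Apoh (chr11:108343354-108414396, plus strand) and Apom (chr17:35128997-35132050, minus strand). Apoa4, Apoa5 and Apoh overlap annotated genes on the opposite strand, whose mean FPKM was at most 0.385. Whether the counting used strand is not given in the sources used here.

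Promoter sequences were available for 8 of the 10 genes in the RefSeq table (build GRCm38.p6), as the 250 bases before and 50 bases after the start site. Those of Apoa1, Apoa4 and Apoa5 are shown because they are neighbours in the chromosome 9 cluster, and that of Apob because it had the lowest unadjusted p-value of the members. All 4 windows are on the plus strand: chr9:46228380-46228679, chr9:46240594-46240893, chr9:46268383-46268682 and chr12:7977427-7977726. Further promoters were listed for Apoa2, Apoa5 and Apoe, and only the one nearest to the GENCODE gene start was searched. The RefSeq start sites of Apoa1, Apoa4, Apob, Apoh and Apom lie inside the GENCODE gene. That of Apoh, at chr11:108395297, lies furthest inside. Capitals mark matches to 9 short motifs.
Apoa1: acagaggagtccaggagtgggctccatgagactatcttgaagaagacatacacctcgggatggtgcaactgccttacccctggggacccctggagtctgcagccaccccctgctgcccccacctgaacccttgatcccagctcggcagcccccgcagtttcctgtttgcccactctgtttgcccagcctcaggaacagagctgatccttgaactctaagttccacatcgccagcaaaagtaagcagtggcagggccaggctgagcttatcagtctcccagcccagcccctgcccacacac
Apoa4: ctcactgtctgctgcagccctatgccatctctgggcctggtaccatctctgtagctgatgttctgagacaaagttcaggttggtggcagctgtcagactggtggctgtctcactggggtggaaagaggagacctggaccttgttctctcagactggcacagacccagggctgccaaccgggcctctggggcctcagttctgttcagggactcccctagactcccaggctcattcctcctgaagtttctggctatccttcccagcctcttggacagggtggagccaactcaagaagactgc
Apoa5: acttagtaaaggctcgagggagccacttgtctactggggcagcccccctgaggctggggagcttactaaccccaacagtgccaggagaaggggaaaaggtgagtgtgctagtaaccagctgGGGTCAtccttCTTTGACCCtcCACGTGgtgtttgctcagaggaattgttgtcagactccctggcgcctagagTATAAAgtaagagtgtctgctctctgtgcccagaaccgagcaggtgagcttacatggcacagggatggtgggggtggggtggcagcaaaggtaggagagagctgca
Apob: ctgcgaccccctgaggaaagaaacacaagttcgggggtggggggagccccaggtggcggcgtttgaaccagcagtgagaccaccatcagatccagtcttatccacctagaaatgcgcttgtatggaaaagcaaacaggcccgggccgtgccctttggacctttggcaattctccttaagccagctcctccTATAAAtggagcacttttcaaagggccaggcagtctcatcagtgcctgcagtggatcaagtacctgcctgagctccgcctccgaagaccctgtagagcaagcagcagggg

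The motifs, searched on both strands, were TATAAA (the TATA box, in 13.6% of all 32544 promoters of that length), CCAAT (37.4%), the E-box CACGTG (7.17%), TTGCAA (6.18%), the HNF4 motif CAAAGTCCA (0.479%), the nuclear receptor half-sites AGGTCA (16.2%) and GGGTCA (13.7%), the longer GGGTCAA (2.39%), and CTTTGAC (3.29%). The first search held 8 motifs, and GGGTCA was added once the matches of that search had been seen. It lies within GGGTCAA, so each match to the longer motif is also one to the shorter. The Apoa5 window held TATAAA at -56 from the start site, CACGTG at -107, GGGTCA at -129 and again in reverse at -115, and there the reverse of GGGTCAA (at -116) and CTTTGAC (at -118) overlap it. The Apob window held TATAAA at -60 and no other motif of the 9. The windows of Apoa1 and Apoa4 held none of these letters. Among the promoters not shown, Apoa2 held TATAAA at -212 and CCAAT in reverse at -164, Apoe held GGGTCA at -28, Apoh held AGGTCA in reverse at -215, and Apom held GGGTCA at -156 and GGGTCAA at -32. A match is a match of letters only.

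The level of a gene is given in FPKM (fragments scaled to transcript length and library size), a scale per length on which genes can be set side by side. Values by mouse follow the order of mice 1, 5 and 6 for NC-chow and of mice 2, 3 and 4 for both other groups. The libraries differed in make-up. Nuclear protein-coding genes took 10.1% to 18.1% of the summed FPKM in NC-chow mice, 4.4% to 29.3% in IVF-chow mice and 4.4% to 13.7% in FET-chow mice. The 3 most abundant nuclear non-coding RNA entries, pseudogenes aside, took between 3.5% and 61.9%. The depth, inferred from the spacing of low values, was 6610000 to 13350000 fragments in NC-chow mice, 3900000 to 8440000 in IVF-chow mice and 2020000 to 2940000 in FET-chow mice. The member with the fewest fragments was Apom, with about 3 in NC-chow mouse 1 and at most 106 in any mouse, whereas Apoa2 had at least 5379. All 6 hepatocyte markers (Alb, Ttr, Cps1, Tat, Cyp2e1 and Cyp3a11) were above 0 in every mouse. Their summed FPKM was 7444 to 14476 (NC-chow), 2189 to 23254 (IVF-chow) and 1935 to 6576 (FET-chow), so that the FET-chow mice lay below every NC-chow mouse. Without overlap this was also so for Alb, Cps1 (21.2 to 53.3 against 7.6 to 15.7), Tat (97 to 243 against 33.1 to 38.9) and Cyp2e1 (175 to 382 against 53.9 to 129). Every FET-chow mouse lay below every NC-chow mouse for 17.1% of all genes tested. Ttr (797 to 3499 against 486 to 1130) and Cyp3a11 (77.2 to 106 against 23.7 to 78.3) overlapped. Alb took up most of the sum in every mouse. The part of these markers in the members' levels was not tested. Since the tissue was bulk liver, fewer cells of a type and less RNA per cell cannot be told apart.

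The 10 mRNAs together made up 13.73% to 23.14% of the summed FPKM of nuclear protein-coding genes. By the median over mice, the order was Apoa2, Apoa1, Apoc1, Apoc3, Apoe, Apoh, Apoa5, Apob, Apoa4 and Apom. Apoa2 ranked between 1 and 3 among all protein-coding genes of a library, and Apoa1 between 2 and 6. Neighbours in this order overlapped over the 9 mice, except Apoe and Apoh. For instance, Apoa1 ranged from 955.3 to 7691 FPKM and Apoc1 from 1021 to 8106. Apoh, from 68.34 to 436 FPKM, stayed below the lowest Apoe value of 534.1.

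**Figure D1:**
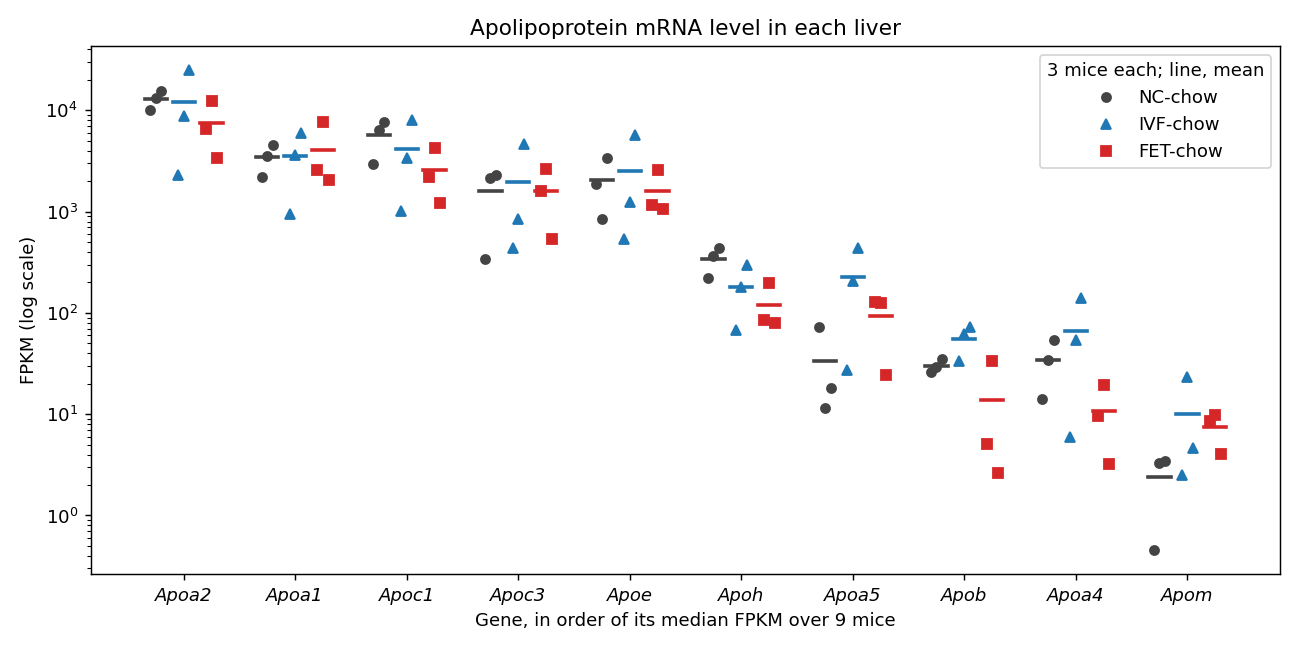
FPKM on a log axis of the 10 apolipoprotein genes, ordered by median, in 3 NC-chow, 3 IVF-chow and 3 FET-chow mice (points) with the group mean (line). Levels run from 0.454 (Apom) to 25114 (Apoa2), and IVF-chow mouse 2 lies low for most genes while IVF-chow mouse 4 lies high.

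Among the HDL proteins, Apoa1, which activates the enzyme that esterifies cholesterol in HDL, had FPKM values of 2178, 3527 and 4600 (NC-chow), 955, 3663 and 5949 (IVF-chow) and 2597, 7691 and 2033 (FET-chow). The groups overlapped, and the highest value was in FET-chow mouse 3. Its log2 fold change, on the log2(FPKM + 1) scale used throughout, was 0.07 ± 0.87 (SE) for FET-chow against NC-chow, with a 95% interval from -1.68 to 1.82. This value was 0.58 on median-ratio scaling and 0.71 on rescaling to nuclear protein-coding genes. It turned to -0.23 without NC-chow mouse 1 and to -0.51 without FET-chow mouse 3.

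Apoa2, the other major HDL protein, had FPKM values of 10022, 13203 and 15690 (NC-chow), 2292, 8834 and 25114 (IVF-chow) and 6623, 12338 and 3409 (FET-chow). The NC-chow mice lay close together (coefficient of variation 21.9%) and the IVF-chow mice far apart (97.3%), with both the lowest and the highest value of all 9 among them. In limma, the log2 fold change was -0.97 ± 0.77 for FET-chow and -0.68 ± 0.77 for IVF-chow, each against NC-chow. The FET-chow value was -0.46 on median-ratio scaling and -0.33 on rescaling to nuclear protein-coding genes, and -0.50 without FET-chow mouse 4. The IVF-chow value was -0.23 and -0.33 on these scalings, 0.22 without IVF-chow mouse 2 and -1.50 without IVF-chow mouse 4.

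Apom, which carries sphingosine-1-phosphate in HDL, was the scarcest member. It had FPKM values of 0.454, 3.31 and 3.43 (NC-chow), 2.52, 23.3 and 4.66 (IVF-chow) and 8.61, 9.84 and 4.07 (FET-chow). Every FET-chow mouse was above every NC-chow mouse, on about 12 to 28 fragments against 3 to 46. With a log2 fold change of 1.42 ± 0.77 (95% interval -0.13 to 2.96) it had the smallest adjusted p-value of the members for FET-chow against NC-chow (limma, unadjusted p = 0.0718, adjusted p = 0.461). On median-ratio scaling, which aligns the libraries on their typical gene, the FET-chow values lay between 7.436 and 7.736, and the NC-chow values between 0.4617 and 2.354. Without NC-chow mouse 1 the log2 fold change was 0.89 (limma, unadjusted p = 0.334), and on rescaling to nuclear protein-coding genes it was 2.55 (unadjusted p = 0.0128).

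Of the proteins of triglyceride-rich particles, Apob had FPKM values of 26.1, 29.5 and 34.8 (NC-chow), 33.4, 62.1 and 72.2 (IVF-chow) and 5.11, 33.3 and 2.62 (FET-chow). Every FET-chow mouse was below every IVF-chow mouse, although FET-chow mouse 3 (33.3) and IVF-chow mouse 2 (33.4) were almost level. Between groups, the log2 fold change for FET-chow against IVF-chow was -2.57 ± 0.99 (95% interval -4.56 to -0.58; limma, unadjusted p = 0.0125, adjusted p = 1). The unadjusted p was 0.06 without FET-chow mouse 2, 0.0857 without FET-chow mouse 4 and 0.094 with a replicate block, with log2 fold changes of -2.28, -1.90 and -2.57. Without FET-chow mouse 3 the log2 fold change was -3.53 (limma, unadjusted p = 0.00203, adjusted p = 0.719). FET-chow mice 2 and 4 had about 144 and 107 Apob fragments, against 1304 in mouse 3 and 3895 or more in every IVF-chow mouse. Apob has the longest exons of the members (13934 bases), and over the 227 tested genes of at least 10000 exon bases the median log2 fold change was -0.19 in the same comparison. The median over all genes tested was -0.20. Of these long genes 72.7% were negative, beside 65.4% of all genes. The part of length in the Apob value was not tested.

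Apoa4, which in mice is made by both intestine and liver, had FPKM values of 14.1, 34.1 and 53.7 (NC-chow), 5.96, 54.0 and 139.8 (IVF-chow) and 9.60, 19.4 and 3.25 (FET-chow). FET-chow mice were low, but the groups overlapped in FPKM, since IVF-chow mouse 2 was lower than FET-chow mice 2 and 3. The fitted log2 fold change was -1.96 ± 1.03 for FET-chow against IVF-chow (limma, unadjusted p = 0.0642, adjusted p = 1) and -1.66 ± 1.03 against NC-chow. The first of these was -3.18 without IVF-chow mouse 2 (unadjusted p = 0.00204, adjusted p = 0.203 in limma) and -1.01 without IVF-chow mouse 4 (unadjusted p = 0.333). The value against NC-chow was -1.06 without FET-chow mouse 4. On median-ratio scaling FET-chow mice (6.155 to 15.27) were below every IVF-chow mouse (16.5 to 68.02). Of the intestinal markers, Fabp2 ranged from 16.9 to 77.4 FPKM in NC-chow mice, 5.01 to 46.6 in IVF-chow mice and 1.43 to 20.5 in FET-chow mice, while Vil1, Lct and Alpi were at most 0.024 in any mouse.

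Apoc3 and Apoa5 have opposite roles in lipolysis, and the ratio of their FPKM overlapped between the groups in all 3 comparisons. Apoc3 had FPKM values of 344, 2131 and 2315 (NC-chow), 439, 852 and 4664 (IVF-chow) and 1618, 2626 and 544 (FET-chow). Its log2 fold change was 0.15 ± 1.02 for FET-chow and 0.01 ± 1.02 for IVF-chow, each against NC-chow. NC-chow mouse 1 was the lowest of all 9 for Apoc3. Without this mouse the log2 fold change was -0.75 for FET-chow and -0.88 for IVF-chow.

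Apoa5 had FPKM values of 71.9, 11.6 and 18.1 (NC-chow), 27.2, 207.7 and 442.7 (IVF-chow) and 127.5, 125.4 and 24.3 (FET-chow). Here NC-chow mouse 1 was the high one of its group, above IVF-chow mouse 2 and FET-chow mouse 4. In limma, the log2 fold change was 2.40 ± 1.13 for IVF-chow (95% interval 0.12 to 4.68; limma, unadjusted p = 0.0394, adjusted p = 1) and 1.51 ± 1.13 for FET-chow, each against NC-chow. The IVF-chow value was 3.55 without IVF-chow mouse 2 (unadjusted p = 0.00211, adjusted p = 0.341 in limma) and 1.56 without IVF-chow mouse 4 (unadjusted p = 0.187). Without NC-chow mouse 5 it was 1.88 (limma, unadjusted p = 0.172). The unadjusted p in limma was 0.112 without NC-chow mouse 6 and 0.118 without IVF-chow mouse 3. Without NC-chow mouse 1 the IVF-chow value was 3.15 (limma, unadjusted p = 0.024, adjusted p = 0.593). The FET-chow value was 2.26 without NC-chow mouse 1 (limma, unadjusted p = 0.0959), 2.29 without FET-chow mouse 4 (unadjusted p = 0.0706) and 0.99 without NC-chow mouse 5 (unadjusted p = 0.471). The S numbers that end the labels run closely together for all mice except NC-chow mice 5 and 6, whose numbers stand apart; what they stand for is not given in the sources used here. With NC-chow mouse 1 as the sole NC-chow mouse, which leaves that group with no spread of its own, the Apoa5 value was 0.92 for IVF-chow and 0.03 for FET-chow. In that setting Apoc3 was at 1.81 for IVF-chow and 1.94 for FET-chow. In the same order, Apom was at 2.43 and 2.48, and Apoa4 at 1.32 and -0.63.

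For the chromosome 7 pair, the ratio of Apoc1 to Apoe overlapped between the groups in all 3 comparisons. Apoc1, a small exchangeable protein that hinders receptor uptake of remnants, had FPKM values of 2938, 6469 and 7690 (NC-chow), 1021, 3395 and 8106 (IVF-chow) and 2180, 4278 and 1228 (FET-chow). Apoe had values of 1870, 842 and 3401 (NC-chow), 534, 1251 and 5715 (IVF-chow) and 1159, 2599 and 1058 (FET-chow). In NC-chow mouse 5 Apoc1 was high and Apoe low. Between groups, the log2 fold change for FET-chow against NC-chow was -1.22 ± 0.87 for Apoc1 and -0.25 ± 0.97 for Apoe. The Apoc1 value was -0.72 on median-ratio scaling, -0.58 on rescaling to nuclear protein-coding genes and -0.79 without FET-chow mouse 4. Apoe is also made by macrophages; the summed FPKM of 6 Kupffer cell markers was 11.7 to 27.2 in NC-chow mice, 3.82 to 28.2 in IVF-chow mice and 11.2 to 77 in FET-chow mice, and their part in the Apoe level was not tested.

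Apoh, a phospholipid-binding plasma protein also called beta-2-glycoprotein I, had FPKM values of 219, 365 and 436 (NC-chow), 68.3, 181 and 297 (IVF-chow) and 85.9, 197 and 79.2 (FET-chow). Each FET-chow value was below each NC-chow value, and IVF-chow mouse 4 alone of its group reached the NC-chow range. The fitted log2 fold change was -1.56 ± 1.08 for FET-chow and -1.08 ± 1.08 for IVF-chow, each against NC-chow. On rescaling to nuclear protein-coding genes they were -0.93 and -0.73, and on median-ratio scaling -1.05 and -0.63. The IVF-chow value was -0.49 without IVF-chow mouse 2 and -1.54 without IVF-chow mouse 4. On median-ratio scaling the IVF-chow mice (144.3 to 189.2) were also below every NC-chow mouse (223 to 269.5). The summed hepatocyte markers given above separated FET-chow from NC-chow mice in the same direction, as did 17.1% of all genes tested. The part of these markers in the Apoh level was not tested.

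No member passed an adjusted p-value of 0.05 in limma in any comparison. For FET-chow against NC-chow 16 of 6755 genes passed (0.237%), and no member had an unadjusted p under 0.05, against 12% of all genes. For IVF-chow against NC-chow 4 genes passed (0.0592%), and 1 member, Apoa5, was under 0.05 unadjusted, against 4.07% of all genes. For FET-chow against IVF-chow 6 genes passed (0.0888%), and 1 member, Apob, was under 0.05 unadjusted, against 4.01%. These unadjusted counts moved with the setting. For FET-chow against NC-chow 3 members (Apoa5, Apoh and Apom) were under 0.05 on median-ratio scaling, against 17% of all genes, and on rescaling to nuclear protein-coding genes (15.7%), and 3 (Apoa4, Apoh and Apom) in a fit of the 2 groups alone (15.3%). On both scalings Apom joined Apoa5 for IVF-chow against NC-chow, with Apoh on the protein-coding one (all genes 5.73% and 4.66%), and Apoa4 joined Apob for FET-chow against IVF-chow (9.47% and 9.68%). The members' median log2 fold change was -0.61 for FET-chow against NC-chow, where 6 were negative and 4 positive, beside a median of -0.46 over all genes tested. It was -0.07 beside -0.25 for IVF-chow against NC-chow and -0.36 beside -0.20 for FET-chow against IVF-chow. Each of these medians moved with the scaling and with single mice. The FET-chow against NC-chow median was -0.10 on median-ratio scaling and 0.03 on rescaling to nuclear protein-coding genes, and lay between -1.04 (without FET-chow mouse 3) and -0.25 (without FET-chow mouse 4). For IVF-chow against NC-chow these scalings gave 0.37 (all genes 0.00) and 0.27 (all genes -0.11), and it was -0.89 without IVF-chow mouse 4 and 0.68 without mouse 2. The FET-chow against IVF-chow median was -0.30 (all genes -0.13) and -0.07 (all genes -0.05), -1.13 without IVF-chow mouse 2 and 0.13 without IVF-chow mouse 4. The comparisons share their mice and are not independent.

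These values moved with the scaling of the libraries. For FET-chow against NC-chow, the median over all genes moved from -0.46 to -0.14 on median-ratio scaling and to -0.18 on rescaling to nuclear protein-coding genes, so that the members' median passed from below it to above it. All 10 members shifted upwards with it, and the median-ratio value of Apoe turned from -0.25 to 0.26. Apoa2, Apoa4, Apob, Apoc1 and Apoh remained negative and Apoa5 and Apom positive in this comparison under every alternative that was run. For IVF-chow against NC-chow this held for Apoa5, Apob and Apom (positive) and Apoh (negative), and for FET-chow against IVF-chow for Apoa4, Apoa5, Apob and Apoh (negative).

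**Figure D2:**
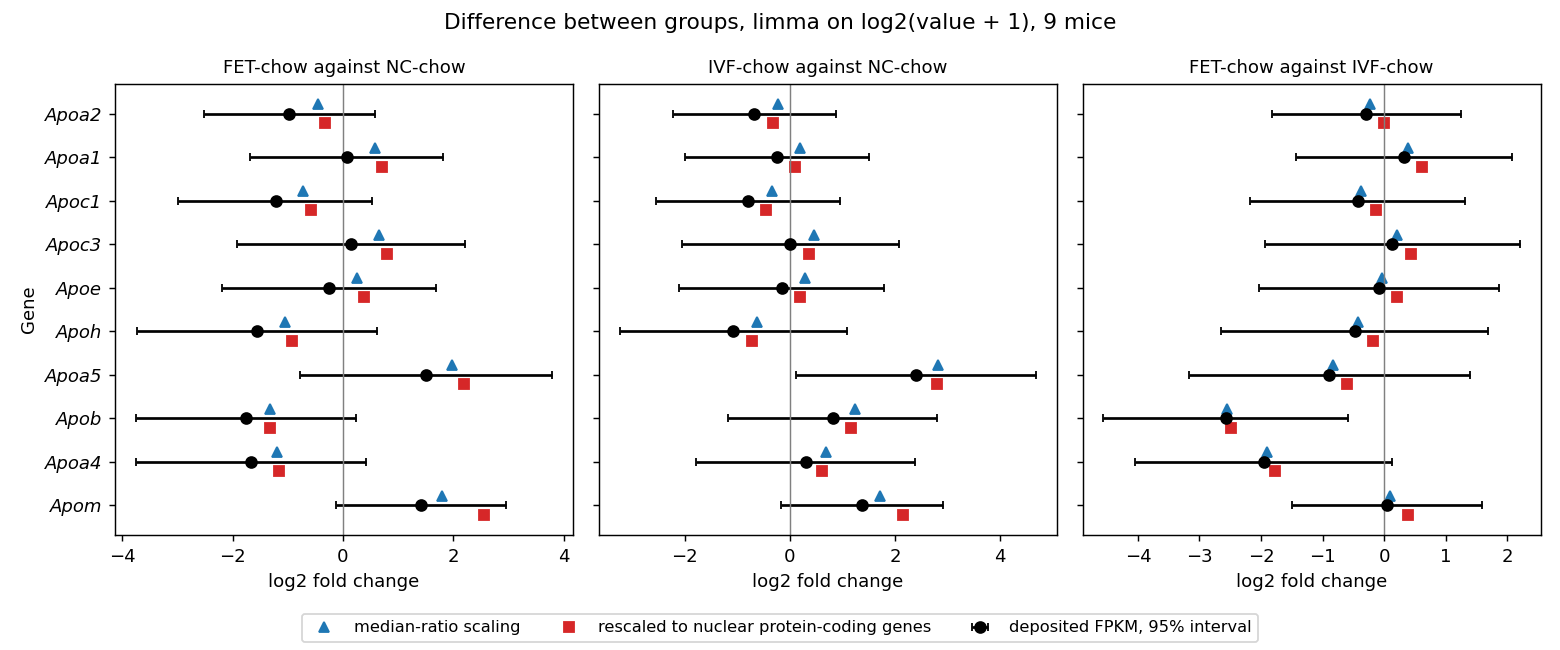
Log2 fold change of each member in the 3 comparisons, from limma on deposited FPKM with its 95% interval (black) and on the 2 other scalings without an interval (blue and red); positive means higher in the first group named. Nearly all intervals cross 0; those that do not are Apoa5 in IVF-chow against NC-chow (0.12 to 4.68) and Apob in FET-chow against IVF-chow (-4.56 to -0.58).

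Read as separation of the mice, FPKM put every FET-chow mouse above every NC-chow mouse for 1 member (Apom; 1.98% of all genes tested) and below for 1 (Apoh; 17.1%). In these deposited FPKM no member separated IVF-chow from NC-chow mice in either direction (higher 0.77%, lower 5.46% of all genes). Below every IVF-chow mouse the FET-chow mice lay for 1 member, Apob (2.56%), and above for none (1.27%).

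Other scalings separated more members. On median-ratio scaling every IVF-chow mouse was above every NC-chow mouse for Apoa5 (75.29 to 215.3 against 8.273 to 73.16) and Apob (35.1 to 92.55 against 20.98 to 26.57), as 7.25% of all genes were, and below for Apoh (8.72%). The FET-chow mice were above NC-chow mice for Apom (7.98%) and below for Apoh (13.6%), and they were below IVF-chow mice for Apoa4 and Apob (8.75%). On rescaling to nuclear protein-coding genes the IVF-chow mice were above NC-chow mice for Apob (4.87%) and below for Apoh (11.3%). There the FET-chow mice were above NC-chow mice for Apom (9.99%), below them for Apoa2, Apoa4 and Apoh (11.5%), and below IVF-chow mice for Apoa4 and Apob (6.01%), compared on unrounded values. For Apoa2, FET-chow mouse 3 (95440) and NC-chow mouse 5 (95560) were almost level. The Apoa4 values of FET-chow mouse 3 and NC-chow mouse 1 both round to 150.3, so that this member separated by less than the digits given.

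The share of each gene in the summed FPKM of the 10 does not depend on how a library is scaled. Apoa2 was the largest share in every mouse, between 40.7% and 56.7%. Apoa1 took 12.3%, 13.3% and 13.4% in NC-chow mice, 17.8%, 19.8% and 11.8% in IVF-chow mice and 18.0%, 25.7% and 24.3% in FET-chow mice. Thus the Apoa1 share averaged 13.0 ± 0.6% (SD, n = 3) in NC-chow, 16.4 ± 4.16% in IVF-chow and 22.7 ± 4.09% in FET-chow mice, with FET-chow above NC-chow in all 3 mice and overlapping IVF-chow. Apoc1 was at 21.1 ± 4.01%, 17.8 ± 1.54% and 14.7 ± 0.415%, and FET-chow mice (14.3% to 15.1%) were below every mouse of both other groups. Apoh took 1.29 ± 0.0675% in NC-chow mice, 0.946 ± 0.343% in IVF-chow mice and 0.733 ± 0.186% in FET-chow mice.

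**Figure D3:**
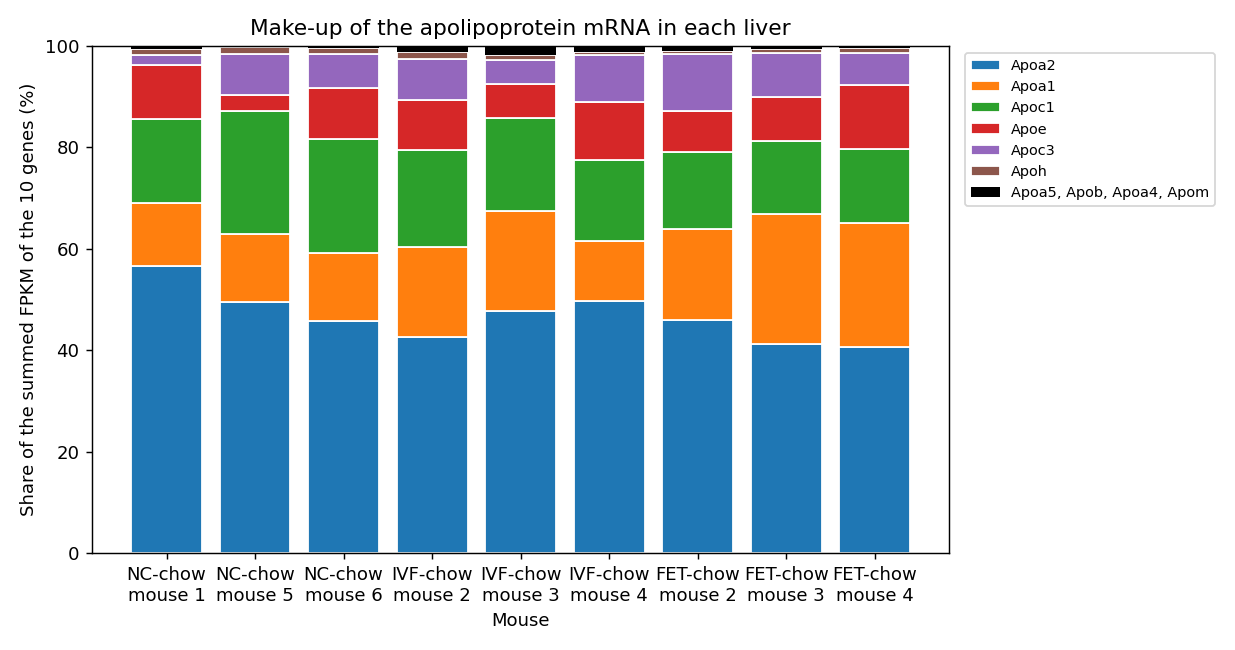
Stacked share (%) of each gene in the summed FPKM of the 10 apolipoprotein genes, 1 bar per mouse. Apoa2 fills 40.7% to 56.7% of every bar, and the Apoa1 band is widest in FET-chow mice 3 (25.7%) and 4 (24.3%).

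Among the minor members, Apoa5 was at 0.407%, 0.0437% and 0.053% in NC-chow mice and at 0.506%, 1.12% and 0.877% in IVF-chow mice, without overlap. The Apoa4 share was 0.122 ± 0.039% in NC-chow, 0.226 ± 0.1% in IVF-chow and 0.0568 ± 0.0156% in FET-chow mice, the latter below all 6 other mice. For FET-chow against NC-chow, 2 shares were higher in every mouse (Apoa1 and Apom), where 9.0% of all genes were when divided by the same sum, and 3 were lower (Apoa4, Apoc1 and Apoh; 10.5%). For IVF-chow against NC-chow 1 was higher (Apoa5; 7.65%) and none lower (5.68%). For FET-chow against IVF-chow none was higher (3.52%) and 3 were lower (Apoa4, Apob and Apoc1; 7.08%). In two-sided exact permutation tests, 3 mice against 3 cannot go below p = 0.1, which these 9 shares reached (adjusted p = 0.333 over 30 tests), so none passed.

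Ratios of 2 members, picked out of 45 after the values had been seen, are given as a description. Of the 45 ratios, 20 separated FET-chow from NC-chow mice in one direction or the other. Of all 10939503 pairs of the 4678 tested genes that were above 0 in every mouse, 2381534 did (21.8%). For IVF-chow against NC-chow 11 of the 45 did (15.8% of all pairs), and for FET-chow against IVF-chow 14 of the 45 (13.0%). In all 3 comparisons at once 2 of the 45 did (1.18%). Pairs that share a gene are not independent. Apoa1 over Apoa2 had values of 0.217, 0.267 and 0.293 (NC-chow), 0.417, 0.415 and 0.237 (IVF-chow) and 0.392, 0.623 and 0.596 (FET-chow). Apoa1 over Apoh was 10.1 ± 0.45 (SD, n = 3) in NC-chow, 18.1 ± 3.55 in IVF-chow and 31.7 ± 6.84 in FET-chow mice, and no mouse of a group fell within the range of another group. The other ratio that separated all 3 groups, Apoa1 over Apob, had another order, with IVF-chow mice lowest: 28.6, 59 and 82.4, against 83.3, 119 and 132 (NC-chow) and 508, 231 and 775 (FET-chow). For this ratio, IVF-chow mouse 4 (82.4) and NC-chow mouse 1 (83.3) were almost level. Within the chromosome 9 cluster, Apoa4 over Apoc3 was 0.00593, 0.0074 and 0.00598 in FET-chow mice, below the 0.0136 to 0.0634 of IVF-chow mice and the 0.016 to 0.041 of NC-chow mice.

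**Figure D4:**
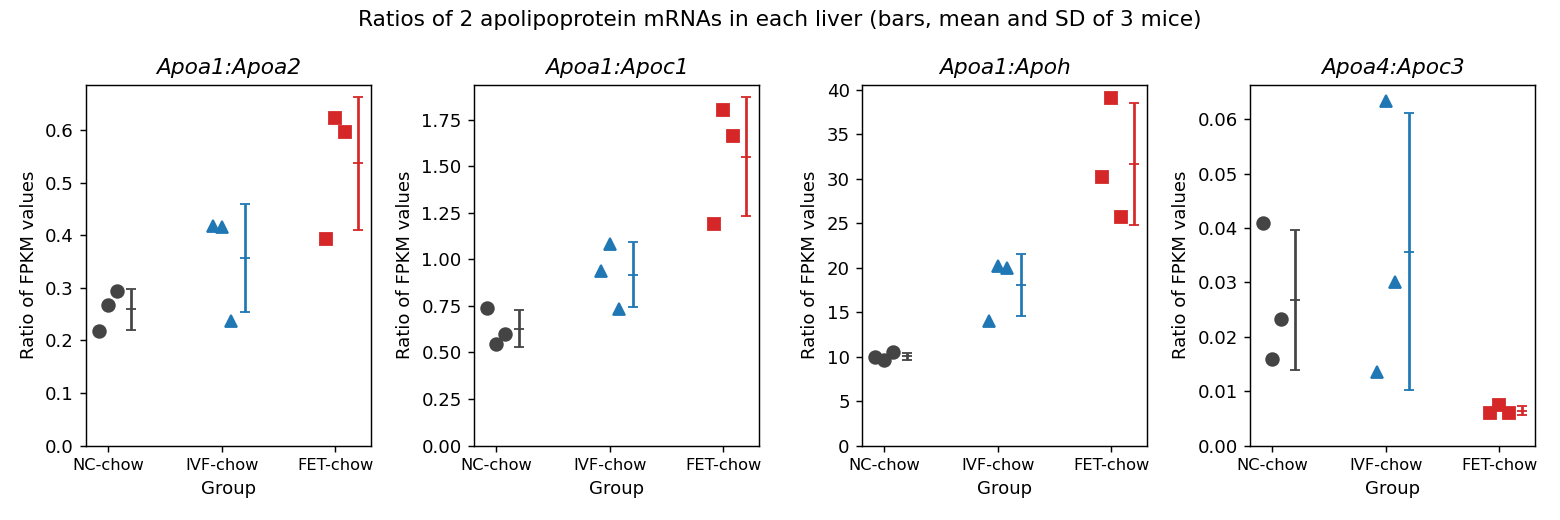
Ratio of the FPKM of 2 genes in each mouse by group (points) with mean and SD (bars), each axis from 0. For Apoa1:Apoh the groups occupy separate ranges around 10.1 (NC-chow), 18.1 (IVF-chow) and 31.7 (FET-chow), and for Apoa4:Apoc3 the FET-chow mice sit near 0.00644.

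Across the 9 mice, the members differed in how closely they followed each other and the make-up of the library. Pearson's r of log2(FPKM + 1) was 0.97 for Apoa2 with Apoc1, 0.95 for Apoh with Apoc1 and 0.90 for Apoa4 with Apoc1. Apoa5 was most like Apoe (0.52) and Apom most like Apoa5 (0.47). With the log2 share of nuclear protein-coding genes in the library, r was 0.98 for Apoa2, 0.97 for Apoc1, 0.93 for Apoa4 and 0.86 for Apoh, but 0.41 for Apoa5 and 0.15 for Apom. All these values share the same 9 libraries and their make-up, and the members are part of that share. The genes most like the mean of the 10 members, out of 1284 with a mean FPKM of at least 10, were Psme1 (0.993), Clu (0.981), Acp5 (0.981), Pxmp4 (0.98) and Uqcrq (0.976).

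Other genes of lipoprotein transport were counted in the same fits, and none passed the adjusted threshold in any comparison. For FET-chow against NC-chow, all 12 tested of 13 genes of VLDL assembly had a negative log2 fold change (median -0.95), among them Mttp, which loads lipid onto Apob (-1.17 ± 0.89). The 5 tested of 10 receptor genes were also all negative (median -1.33). Of 15 tested genes of HDL and lipolysis 11 were negative (median -0.61). Among them Pltp was at -2.22 ± 0.83 and Pon1 at -2.09 ± 1.03, while hepatic lipase, Lipc, was at 1.65 ± 1.07. Of 14 tested regulators 13 were negative (median -1.21), and of 12 other apolipoproteins 9 (median -0.78), with Apof at -2.35 ± 1.11 and Apoc2, the activator of lipoprotein lipase, at -1.66 ± 1.09. Apoc2 was listed at 0 in FET-chow mouse 2, while FET-chow mouse 3 had the highest value of all 9 mice (64.2 FPKM) and FET-chow mouse 4 had 16.3, against 49.8, 34.2 and 18.9 in NC-chow mice. For Apof, FET-chow mouse 3 (69.6) lay within the NC-chow range of 59.4 to 109.9 and the other two below it. Of 26 other plasma proteins of the liver, 24 were negative (median -0.59), with Alb at -1.37 ± 0.83 and Ttr at -1.63 ± 0.99. These counts stand beside 74.3% negative values over all genes tested. On median-ratio scaling, where 57.5% of all genes were negative, VLDL assembly (12 of 12, median -0.47) and receptors (5 of 5, median -0.93) stayed negative throughout, while 11 of 14 regulators, 9 of 12 other apolipoproteins, 9 of 15 genes of HDL and lipolysis and 15 of 26 other plasma proteins (median -0.08) were negative. With rescaling to nuclear protein-coding genes the median of the other plasma proteins was 0.05, with 12 of 26 negative, and that of VLDL assembly was -0.60, again with all 12 negative. There 56.7% of all genes were negative, as were 5 of 5 receptors, 10 of 14 regulators, 7 of 12 other apolipoproteins and 10 of 15 genes of HDL and lipolysis.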

How the data were processed

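Liver RNA of 9 mice, 3 per group as labelled, was analysed. The authors deposited FPKM values, from TRIzol RNA sequenced on an Illumina Nova6000 system. The submitters' processing notes name FastQC 0.11.5, STAR 2.5.3a, StringTie 1.3.1c and DESeq2 1.16.1 with no role; build and annotation are not given in the sources used here. Of 55335 genes, 55154 matched GENCODE vM21 (GRCm38). The diet was taken from the paper.

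FPKM are not counts. limma 3.58.1 (R 4.3.3) was run on log2(FPKM + 1) for the 6755 genes averaging 1 FPKM or more, with 3 groups in one model, a trend in the variance, two-sided tests and Benjamini-Hochberg adjustment at 0.05, and was tested on simulated data. Shares were compared by exact permutation. Depth was estimated from steps in low FPKM: 34.9% to 44.2% of low values lay within 2% of a step, against 18% by chance, so fragment numbers are approximate and cover counting error only.

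All 10 members are named, as are the 5 genes most like the members. List genes given with a log2 fold change come from the 5 with the largest statistic in their list for FET-chow against NC-chow. They are not always the largest of the 5, and no receptor or regulator gene is among them. A single list gene is left out and not reported here. Members, lists and motifs were chosen with earlier results of these data known. Alternatives were a pseudocount of 0.1, no filter, median-ratio scaling, rescaling to nuclear protein-coding genes (with the members left out, added after seeing the data), fits of 2 groups, leaving out each mouse, NC-chow mouse 1 alone, and a replicate block.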

Additional observations from a re-analysis of the deposited data

How the results depend on the processing

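No member passed the adjusted threshold under any alternative, and the smallest adjusted p-value was 0.203 for FET-chow against NC-chow, 0.341 for IVF-chow against NC-chow and 0.203 for FET-chow against IVF-chow. Depth limits Apom most (about 3 to 106 fragments), and the FET-chow libraries were the smallest. The cause of the reversals below was not tested.

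Of 130 alternative values per comparison, 8, 16 and 20 reversed. For FET-chow against NC-chow, Apoe turned to 0.26 on median-ratio scaling, 0.39 on nuclear protein-coding scaling and 0.38 on that scaling without the members. In IVF-chow against NC-chow these 3 scalings gave 0.19, 0.09 and 0.05 for Apoa1 and 0.28, 0.19 and 0.14 for Apoe, and with NC-chow mouse 1 alone Apoa1 was 0.34 and Apoc1 0.05. For FET-chow against IVF-chow Apoe was 0.21 and 0.23 on the 2 protein-coding scalings, and Apoa2 was 0.03 on the one without the members.

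Leaving out each mouse gave, for FET-chow against NC-chow, -0.51 (without FET-chow mouse 3) to 0.45 for Apoa1, -0.75 (without NC-chow mouse 1) to 0.79 for Apoc3 and -0.78 to 0.23 (without NC-chow mouse 6) for Apoe. In IVF-chow against NC-chow the ranges were -0.81 to 0.51 for Apoa1, -1.50 to 0.22 for Apoa2, -0.65 to 1.52 for Apoa4, -0.96 to 0.74 for Apoc3 and -1.10 to 0.61 for Apoe, their ends set by leaving out IVF-chow mouse 4 or mouse 2. For FET-chow against IVF-chow they were -0.44 to 0.88 for Apoa1, -1.19 to 0.54 for Apoa2, -1.22 to 0.28 for Apoc1, -0.59 to 1.11 for Apoc3 and -0.86 to 0.85 for Apoe, ends set by the same 2 mice, and -0.54 to 0.86 (without IVF-chow mouse 3) for Apom.

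The count of all genes called by limma moved for FET-chow against NC-chow from 16 to 26 on median-ratio scaling, to 6 with NC-chow mouse 1 alone, to 0 with no filter (2618 at an unadjusted p under 0.05) and to 0 in a fit of 2 groups (1031). Leaving out each mouse gave 1 (without FET-chow mouse 3) to 83 (without NC-chow mouse 1), and 57 without FET-chow mouse 2. In IVF-chow against NC-chow the 4 calls became 2 with NC-chow mouse 1 alone and 0 with a pseudocount of 0.1 (179), no filter (1580), median-ratio scaling (387), nuclear protein-coding scaling (315), that scaling without the members (323) and a fit of 2 groups (318); leaving out each mouse gave 0 to 24 (without NC-chow mouse 1). For FET-chow against IVF-chow the 6 calls became 0 with no filter (829) and in a fit of 2 groups (207), and 0 (without IVF-chow mouse 4) to 10 (without IVF-chow mouse 2) when leaving out each mouse. With a replicate block for the mouse number in FET-chow against IVF-chow, 2 genes and no member were called (244 genes unadjusted). IVF-chow and FET-chow mice with the same number did not deviate together (mean r = -0.12, pairs -0.13, 0.02 and -0.26). So few pairs cannot tell whether such mice share anything beyond the number.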
